A study of Mus musculus with 66 samples.

Results

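The 7 genes of the Fos and Jun family, Fos, Fosb, Fosl1, Fosl2, Jun, Junb and Jund, were followed through 66 RNA-seq libraries of mouse ventral striatum. They were taken by symbol from a table of 24138 genes, in which each of the 7 symbols stood for a single protein-coding gene of mm10. WT mice and iMSN-D2RKO mice received an intraperitoneal injection of saline or of 20 mg/kg cocaine at zeitgeber time 3 (ZT3, 3 h after lights on), and punches of the nucleus accumbens (NAcc) were collected at ZT7, 11, 15, 19 and 23. A further group of each genotype was collected at ZT3 itself, with a label that covers both treatments, and the table lists these same 6 libraries under saline and under cocaine. That gave 22 groups of 3 libraries, each counted once here.

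All groups were male mice on a C57BL/6 background, aged 3 to 5 months and kept in a cycle of 12 h light and 12 h dark, so that ZT3, ZT7 and ZT11 fell in the light and ZT15, ZT19 and ZT23 in the dark. iMSN-D2RKO mice carry floxed alleles of the dopamine D2 receptor gene Drd2 together with Cre driven by the D1 receptor promoter. The Cre therefore acts in the striatal precursors that use that promoter during development. D2 receptors are lost from indirect pathway medium spiny neurons (iMSNs) and are kept in other cells. WT mice served as the comparison. The labels do not say that replicates were separate mice, so the p-values below measure the spread between libraries.

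Fos and Jun proteins are the subunits of AP-1, a dimeric transcription factor. In AP-1, Fos proteins bind DNA as dimers with a Jun protein, whereas Jun proteins can also pair with each other. Fos, Fosb and Junb are immediate early genes, transcribed within minutes of neuronal activity, and their response to dopamine and cocaine in striatal spiny neurons is a classical one. Fosb also gives rise to the shortened protein ΔFosB, which builds up over repeated drug exposure; the deposited values are per gene and do not separate the transcripts.

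The DNA upstream of the annotated RefSeq starts is shown because textbook accounts place the signal response of Fos and its relatives there. RefSeq promoter sequences on GRCm38.p6 (the mm10 assembly) were matched for 6 of the 7 members, and the last 150 bases before each annotated start are given 5′ to 3′. Capitals mark matches to TGACG (the core of a cAMP response element) on either strand, to TGACATCA (a variant AP-1 site) on either strand and to TATAAA on the gene's strand.
Fos, chr12:85473740-85473889, plus strand: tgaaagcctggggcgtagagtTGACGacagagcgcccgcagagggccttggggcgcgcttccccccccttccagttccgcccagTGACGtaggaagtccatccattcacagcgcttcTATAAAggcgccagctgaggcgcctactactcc
Fosb, chr7:19310046-19310195, minus strand: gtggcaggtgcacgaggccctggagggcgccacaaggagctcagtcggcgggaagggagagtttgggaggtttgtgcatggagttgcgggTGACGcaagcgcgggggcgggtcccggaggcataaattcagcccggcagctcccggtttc
Fosl2, chr5:32136322-32136471, plus strand: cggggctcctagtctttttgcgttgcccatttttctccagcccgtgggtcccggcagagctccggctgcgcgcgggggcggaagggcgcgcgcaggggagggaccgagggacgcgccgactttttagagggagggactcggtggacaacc
Jun, chr4:95052223-95052372, minus strand: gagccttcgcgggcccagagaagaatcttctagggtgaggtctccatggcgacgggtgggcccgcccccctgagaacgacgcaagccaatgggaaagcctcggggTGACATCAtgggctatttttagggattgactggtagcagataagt
Junb, chr8:84978749-84978898, minus strand: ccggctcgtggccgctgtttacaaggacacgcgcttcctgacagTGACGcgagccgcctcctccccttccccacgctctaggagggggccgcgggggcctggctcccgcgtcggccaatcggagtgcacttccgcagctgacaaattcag
Jund, chr8:70697589-70697738, plus strand: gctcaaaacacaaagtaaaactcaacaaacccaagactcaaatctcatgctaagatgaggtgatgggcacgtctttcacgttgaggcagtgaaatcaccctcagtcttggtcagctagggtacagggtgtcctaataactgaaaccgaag

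Fos held TGACG starting 129 and 66 bases before its start and TATAAA 33 bases before it. TGACG also stood 60 bases before the start of Fosb and 106 bases before that of Junb, and TGACATCA stood 45 bases before the start of Jun. No match to these letters was found in the 250 bases upstream of Fosl2 or Jund, and no member held the full cAMP response element TGACGTCA, which contains TGACG, or the AP-1 site TGACTCA in that window. Over all 32851 RefSeq windows of 250 bases, 17.8% held TGACG, 1.55% TGACGTCA, 4.46% TGACTCA, 2.93% TGACATCA and 7.59% TATAAA. The RefSeq starts of Jund and Fosl2 lie far from the GENCODE gene boundaries. That of Jund, at 70697739, lies before the GENCODE start at 70698949. That of Fosl2, at 32136472, lies inside the GENCODE gene, which starts at 32135801. Those of Fosb, at 19310045, and Junb, at 84978748, lie closer to the GENCODE boundaries, at 19310051 and 84978718 on the minus strand. For Jund and Fosl2, the genes without a match, the window is therefore not the DNA next to the GENCODE start. A match is a description of letters and not of a bound site.

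The deposited values are FPKM (sequenced fragments divided by the length of the transcript and by the size of the library), and the number of reads behind them is unknown. Drd2 mRNA, the target of the deletion, lay between 99.1 and 304 FPKM with a median of 129 in the 33 WT libraries. In the 33 iMSN-D2RKO libraries it lay between 78.0 and 375 FPKM with a median of 112, so total Drd2 mRNA does not separate the genotypes. All 11 spiny neuron markers were present in every library, among them Drd1 at 56.7 to 163 FPKM. Markers of cortical excitatory neurons varied widely, with Slc17a7, a vesicular glutamate transporter, at 1.78 to 233 FPKM. In addition, 13 libraries were set apart from the other 53 by a library score, the leading component of variation within groups over 9584 genes. They scored 44.3 to 56.1 against -35.9 to 15.1, and lay in 10 groups: ZT19 and ZT23 of all series except cocaine ZT19 in iMSN-D2RKO, ZT15 of both iMSN-D2RKO series and ZT7 of iMSN-D2RKO cocaine. The labels name no batch.

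FPKM is scaled to transcript length, so levels can be set side by side between genes. Junb had the highest median over the 66 libraries at 51.9 FPKM, followed by Jund at 43.4 and Jun at 17.3 FPKM. The Fos genes were lower, with medians of 5.02 FPKM for Fosl2, 4.66 for Fosb and 4.37 for Fos. Fosl1, which encodes the Fos relative Fra-1, was above 0 in 30 of 66 libraries, reached no more than 0.184 FPKM and was not tested. The order of neighbours was not the same in every library. Junb exceeded Jund in 49 libraries, Fosl2 exceeded Fosb in 41 and Fosb exceeded Fos in 33, so the Fos genes cannot be ordered beyond their spread. Jund exceeded Jun in 55 libraries, but in only 2 of the 13 that were set apart. The step from the Jun genes to the Fos genes held in nearly all, Jun being above Fosl2 in 65 of 66 libraries.

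**Figure D1:**
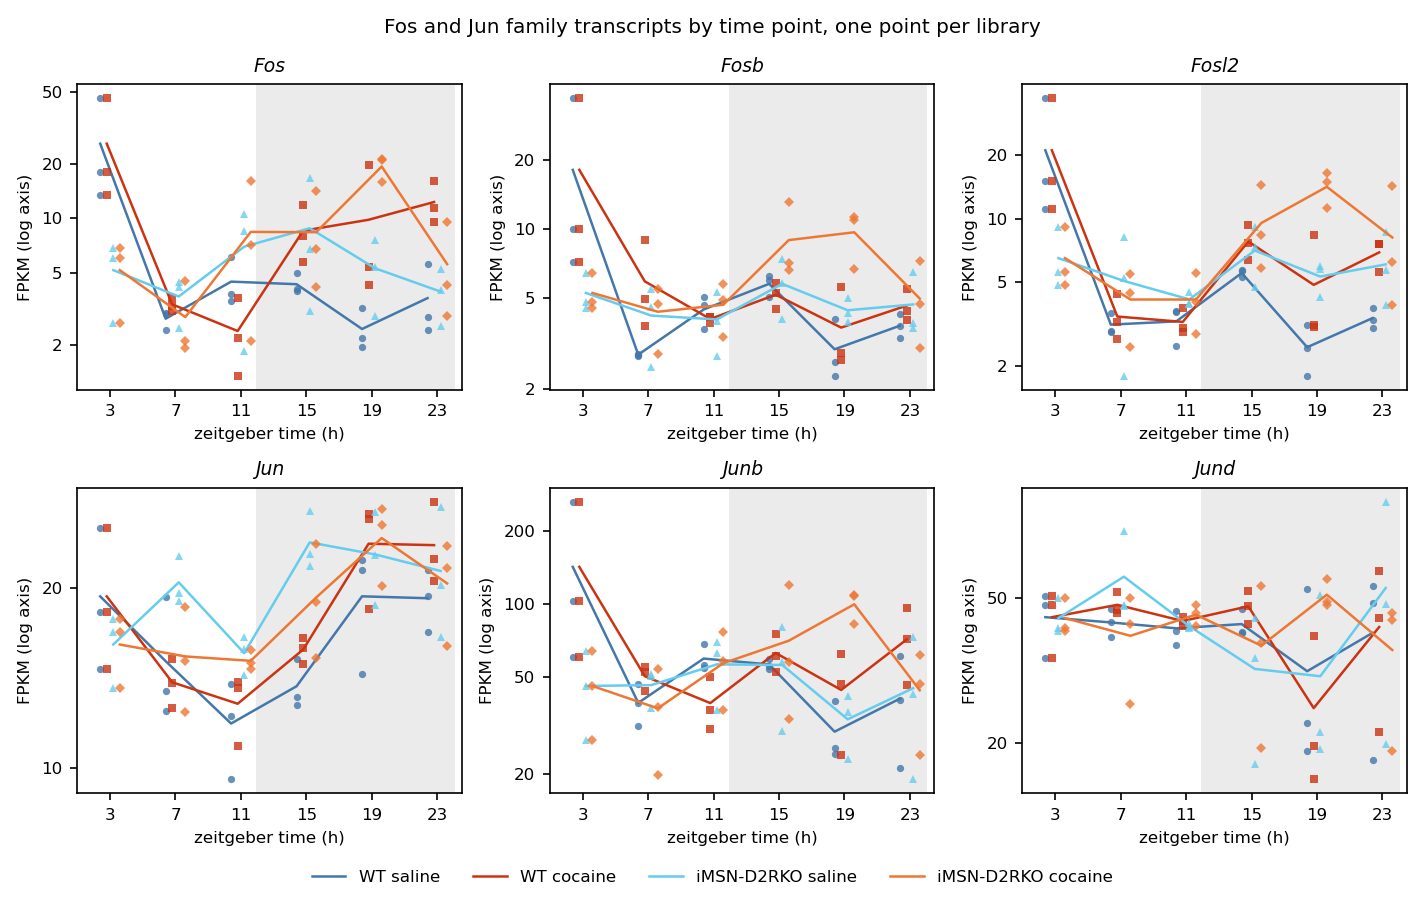
FPKM (log axis) of 6 family members against zeitgeber time, with a point for each library and a line through the means of each series; grey marks the dark phase, and the 3 ZT3 libraries of a genotype are drawn in both of its series. Fos, Fosb, Fosl2 and Junb have their highest group mean in WT at ZT3, where 1 of the 3 libraries lies far above the others, and the replicates of Jund lie far apart in some groups.

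The members differed in how widely replicates spread. The standard deviation (SD) between libraries of a group on log2(FPKM + 1) was 0.65 for Fos, 0.58 for Junb, 0.52 for Jund, 0.45 for Fosl2 and 0.41 for Fosb. For Jun it was 0.23, close to the median of 0.28 over the 9584 genes with a mean above 5 FPKM. Group means were spread by 0.77 for Fos and 0.62 for Fosl2, and by 0.30 each for Jun and Jund, with a median of 0.21 over the same genes. Of the 6 tested members, Jund was thus the one whose groups differed least relative to the spread within them.

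The Jun genes moved with the library score. Jund, which often restrains AP-1 activity in resting cells, was at 15.9 to 25.7 FPKM in the 13 set-apart libraries and at 34.2 to 91.5 FPKM in the other 53, with no overlap. In the 10 groups that held both kinds, Jund was lower in the set-apart libraries in 10, by a mean of -1.23 on the log2 scale. Junb was also lower in 10 of 10 groups, by a mean of -0.97. Jun went the other way and was higher in 9 of 10 groups, by a mean of 0.33. Fosb and Fosl2 were lower in 9 of 10 groups and Fos in 7 of 10. Since the score was computed from genes that include these, the values describe the libraries and are not a test. The score took up 43.56% of the variation within groups over its 9584 genes. How many other genes moved with it in the same way was not counted, so the pattern is not shown to be particular to the Jun genes. Their part in the results below is given as values with and without those libraries.

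**Figure D2:**
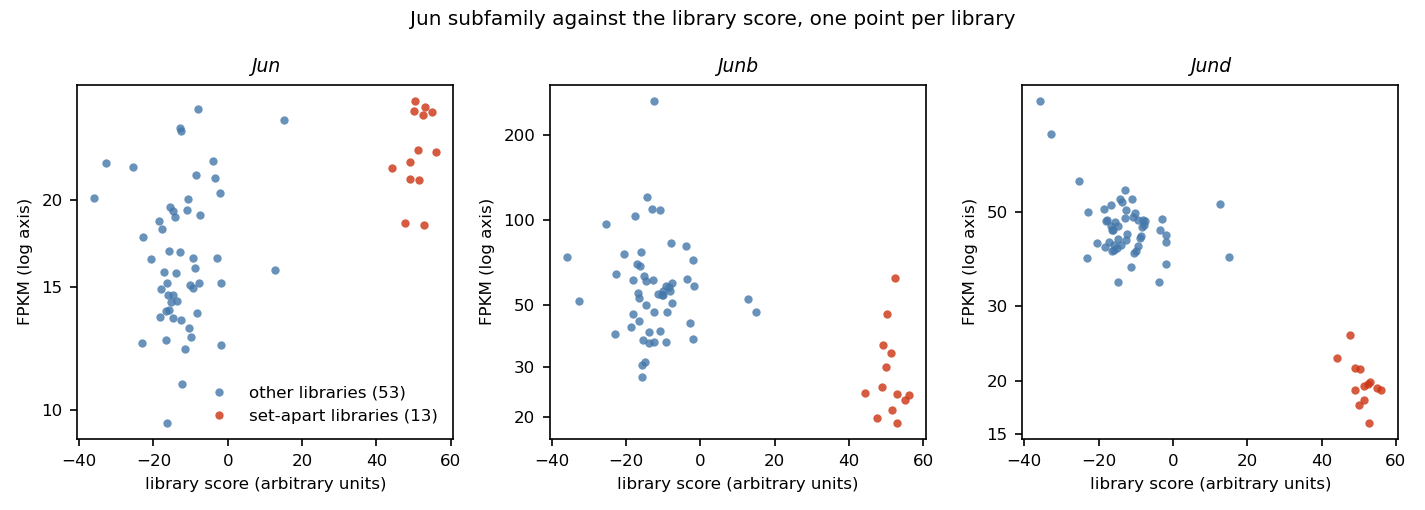
FPKM (log axis) of the 3 Jun genes against the library score (arbitrary units), with a point for each library; red marks the 13 set-apart libraries. Jund is below 26 FPKM in the red points and above 34 FPKM in the blue ones, Junb tends to be lower and Jun higher in the red points.

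The first comparison is between genotypes at ZT3, the hour of the injection. There the Fos genes stood higher in WT than in iMSN-D2RKO. Fos, the founding member, was at 46.0, 13.5 and 18.1 FPKM in the WT libraries and at 2.64, 6.80 and 6.04 FPKM in the iMSN-D2RKO libraries. Fosb was at 37.0, 7.16 and 9.997 FPKM in WT and at 4.79, 4.53 and 6.42 FPKM in iMSN-D2RKO. Fosl2, which encodes Fra-2, was at 37.2, 11.1 and 15.1 FPKM in WT and at 4.82, 5.56 and 9.12 FPKM in iMSN-D2RKO. For these 3 genes every WT library was above every iMSN-D2RKO library, as was the case in this direction for 6.52% of the genes tested. Junb, an early-response Jun gene, was at 264, 60.8 and 103 FPKM in WT and at 46.3, 27.6 and 64.3 FPKM in iMSN-D2RKO, with overlap. Replicate 1 of WT was the highest of all 66 libraries for 5 of the 7 members and for 13 of 27 other immediate early genes. The 5 include Fosl1, there at 0.184 FPKM, and the share of all genes highest in that library was not counted.

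None of these differences passed the test across genes. limma put iMSN-D2RKO minus WT on log2(FPKM + 1) at -2.01 ± 0.51 (SE) for Fos, with an adjusted p of 0.244. It was -1.28 ± 0.33 for Fosb (adjusted p = 0.244), -1.42 ± 0.36 for Fosl2 (adjusted p = 0.240) and -1.42 ± 0.46 for Junb (adjusted p = 0.825). No member was called at an adjusted p under 0.05, against 0.041% of all 14643 genes tested. An unadjusted limma p under 0.05 was found for 4 of the 6 tested members and for 298 of all genes tested. Without WT replicate 1 the differences were -1.51 for Fos, -0.93 for Fosl2, -0.85 for Junb and -0.61 for Fosb, each with a limma adjusted p of 1. Without WT replicate 2, the lowest of the 3, Fosb and Fosl2 were called by limma with adjusted p of 0.0156 and 0.0410. With the library score as a covariate, Junb was called at -1.49 with an limma adjusted p of 0.0336. None of the 6 ZT3 libraries was set apart, and their cortical marker sums were 143 to 274 FPKM in WT and 21.2 to 218 FPKM in iMSN-D2RKO. With the cortical marker level as a covariate, the differences were -1.88 for Fos and -1.29 for Fosb. Jun, which pairs with any of the Fos proteins, and Jund differed by -0.23 ± 0.19 and 0.01 ± 0.41, with 95% intervals of -0.61 to 0.15 and -0.83 to 0.84.

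Of 27 other immediate early genes, 1 was called at ZT3, Egr2, a zinc finger factor, at -2.49 ± 0.46 (limma adjusted p = 0.00843). The median of the list was -0.75, beside 0.01 over all genes tested. The glucocorticoid-induced kinase gene Sgk1 was called at -1.24 ± 0.25 (limma adjusted p = 0.0317), alone among 8 genes of its kind. The 14 tested relatives of AP-1 with a basic leucine zipper had a median of -0.12, and none of them was called. Of the 14, 2 had an unadjusted limma p under 0.05, beside 298 of all 14643 genes. In tissue punches, fewer cells of a type and less RNA per cell cannot be told apart, here and below.

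**Figure D3:**
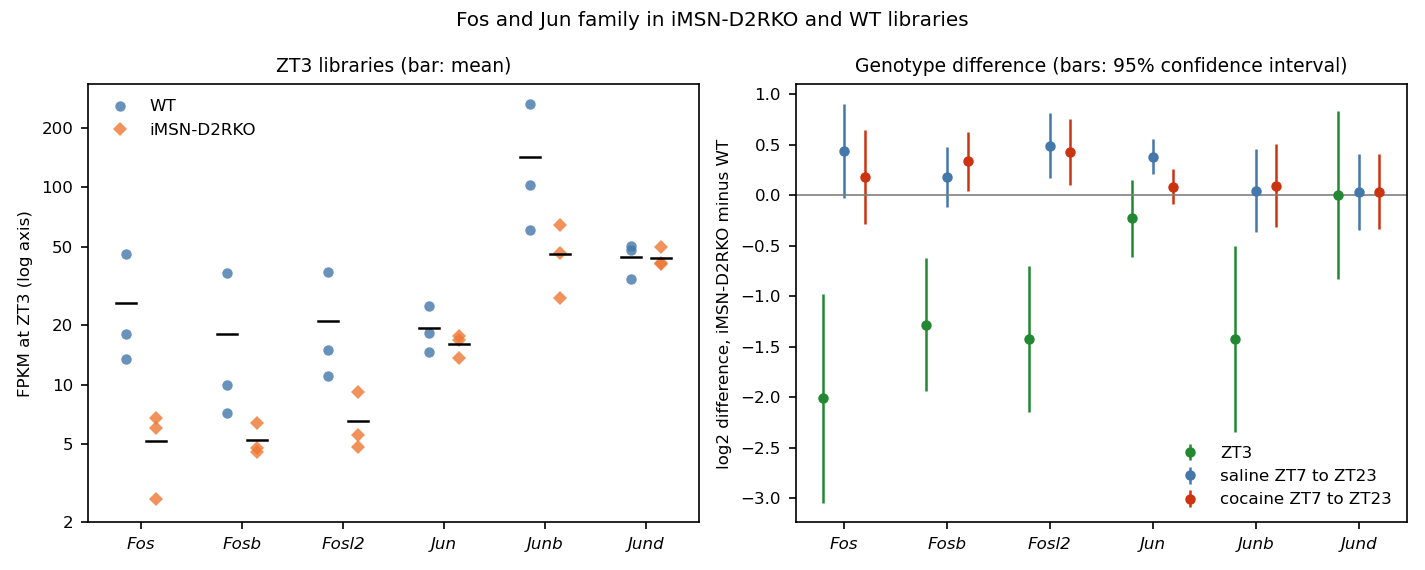
Left, FPKM (log axis) of each member in the 3 WT and 3 iMSN-D2RKO libraries at ZT3, with bars at the means; right, limma differences between genotypes on log2(FPKM + 1) with 95% confidence intervals. The intervals of Fos, Fosb, Fosl2 and Junb lie below 0 at ZT3 without passing the adjustment over genes, those of Jun and Fosl2 lie above 0 in saline and those of Fosl2 and Fosb above 0 in cocaine, and of all these Jun in saline alone passes it.

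Jun was the member that differed between genotypes after saline. Over ZT7 to ZT23, Jun was higher in iMSN-D2RKO by 0.38 ± 0.09 on the log2 scale (limma adjusted p = 0.0257), where 0.212% of all genes were called. At ZT7 it was at 22.6, 19.6 and 19.03 FPKM in iMSN-D2RKO and at 13.4, 12.5 and 19.3 FPKM in WT. At ZT15 the values were 22.8, 26.8 and 21.7 FPKM in iMSN-D2RKO and 15.2, 12.7 and 13.1 FPKM in WT. The groups overlapped at ZT7, ZT19 and ZT23 and were apart at ZT11 and ZT15. The share of all genes that were apart between genotypes at those hours was not counted. The call was sensitive: it was lost in 11 of 30 fits that each left out 1 library, with limma adjusted p up to 0.0765. These were WT replicates 1 and 2 at ZT7, 2 at ZT11, 2 at ZT15, 3 at ZT19 and 3 at ZT23, and iMSN-D2RKO replicates 1 at ZT7, 1 at ZT11, 2 at ZT15, 1 at ZT19 and 3 at ZT23. Without the set-apart libraries the difference was 0.37 with an limma adjusted p of 0.0711. The other 5 tested members were not called, Fosl2 coming closest at 0.49 ± 0.16 (limma adjusted p = 0.194). After cocaine no member was called between genotypes, against 0.109% of all genes. Unadjusted limma p under 0.05 belonged to 2 of 6 members and to 725 of all 14643 genes. Jun then differed by 0.09 ± 0.09 and Fosl2 by 0.43 ± 0.16 (limma adjusted p = 0.694). Among genes listed as FosB or AP-1 regulated, Penk, which encodes enkephalin, was higher in iMSN-D2RKO after saline (0.79 ± 0.14) and after cocaine (0.69 ± 0.14), with limma adjusted p of 0.00113 and 0.00889, and the other 8 were not called. Penk is also one of the spiny neuron markers, of which Drd1 was higher in iMSN-D2RKO after cocaine too, by 0.48 ± 0.10 (limma adjusted p = 0.00905), and the part of these cells in the result was not tested. Of the 27 other immediate early genes, Nr4a1 alone was called, higher in iMSN-D2RKO after saline by 0.82 ± 0.14 (limma adjusted p = 0.000484).

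The central comparison is that of cocaine with saline at each time point. In WT mice, Fos was the member with the largest fitted differences, at the dark time points ZT19 and ZT23, and none passed the test. At ZT7 Fos was at 3.08, 3.29 and 3.64 FPKM after cocaine and at 2.98, 2.41 and 2.96 FPKM after saline. At ZT15 it was at 5.69, 11.9 and 8.01 FPKM after cocaine and at 4.97, 3.93 and 4.04 FPKM after saline. At ZT19 it was at 4.29, 5.39 and 19.7 FPKM after cocaine and at 3.19, 2.17 and 1.95 FPKM after saline. By ZT23 the values were 11.4, 16.0 and 9.47 FPKM after cocaine and 2.42, 2.85 and 5.57 FPKM after saline. The cocaine libraries were above the saline libraries without overlap at these 4 time points, and below or among them at ZT11, where they were at 2.18, 1.34 and 3.60 FPKM against 3.48, 3.799 and 6.09 FPKM.

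The WT differences of Fos on log2(FPKM + 1) were 0.20 ± 0.51 at ZT7, -0.72 ± 0.51 at ZT11, 0.80 ± 0.51 at ZT15, 1.39 ± 0.51 at ZT19 and 1.56 ± 0.51 at ZT23. At ZT19 and ZT23 the 95% intervals of 0.35 to 2.42 and 0.52 to 2.59 did not include 0, and the limma adjusted p was 0.778 and 1. WT ZT19 held 2 set-apart libraries in each treatment. Without the set-apart libraries, Fos differed by 1.12 at WT ZT19, with 1 library on each side, and by 1.53 at WT ZT23. Averaged over ZT7 to ZT23, Fos was higher after cocaine by 0.64 ± 0.23, with an unadjusted limma p of 0.00732 and an adjusted p of 1.

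Fosl2 followed Fos in WT at lower amplitude. It was at 7.58, 7.58 and 5.60 FPKM after cocaine at ZT23 and at 3.04, 3.78 and 3.32 FPKM after saline, a difference of 0.85 ± 0.36. At ZT15 it was at 7.66, 6.35 and 9.37 FPKM against 5.69, 5.62 and 5.27 FPKM, again without overlap. Fosb was apart at ZT7 alone, with 4.93, 8.96 and 3.78 FPKM after cocaine and 2.82, 2.85 and 2.80 FPKM after saline, a difference of 0.78 ± 0.33. Junb was lower after cocaine without overlap at ZT11, at 30.6, 36.8 and 50.003 FPKM against 56.0, 68.6 and 54.6 FPKM, as were 5.75% of all genes. Members stood higher without overlap in WT as follows: 2 at ZT7, beside 4.84% of all genes, 2 at ZT15 (5.08%), 1 at ZT19 (4.86%) and 2 at ZT23 (2.41%). Jun and Jund differed by no more than 0.29 in either direction at any WT time point.

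In iMSN-D2RKO mice, 4 of the 6 tested members stood higher after cocaine without overlap at ZT19, and none was called. Fos was at 20.9, 15.9 and 21.2 FPKM after cocaine and at 5.35, 2.87 and 7.62 FPKM after saline. Fosb was at 11.3, 10.9 and 6.70 FPKM against 4.28, 5.01 and 3.94 FPKM, and Fosl2 at 16.4, 14.9 and 11.2 FPKM against 5.94, 5.77 and 4.24 FPKM. Junb was at 109, 108 and 82.9 FPKM against 22.9, 41.8 and 36.0 FPKM. These 4 members did not overlap between treatments, in a comparison where 6.16% of all genes were higher after cocaine without overlap. Jund was at 56.4, 48.8 and 47.8 FPKM against 19.2, 50.8 and 21.5 FPKM, with overlap, and Jun was at 25.4, 20.1 and 27.1 FPKM against 26.8, 18.7 and 22.7 FPKM.

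The fitted differences at iMSN-D2RKO ZT19 were 1.76 ± 0.51 for Fos, 1.58 ± 0.46 for Junb, 1.26 ± 0.36 for Fosl2, 0.95 ± 0.33 for Fosb, 0.85 ± 0.41 for Jund and 0.09 ± 0.19 for Jun. The first 5 had unadjusted limma p of 0.0013, 0.00117, 0.00101, 0.00569 and 0.0443, and all 5 had an adjusted p of 0.304. Saline replicates 1 and 3 were set apart and no cocaine library was. Without the set-apart libraries, which left saline replicate 2 alone against 3 cocaine libraries, the differences were 2.38 for Fos, 1.23 for Junb, 1.15 for Fosl2, 0.79 for Fosb and 0.00 for Jund. Leaving out saline replicate 2 instead, so that every remaining saline library was a set-apart one, gave limma calls for Fosl2 and Junb (adjusted p = 0.0460 each) and Fosb (adjusted p = 0.0492), and Fos then had an adjusted p of 0.0610. For Jund, that fit is not reported here. Cortical marker sums were 173 to 200 FPKM after cocaine and 33.6 to 151 FPKM after saline, without overlap. With the cortical marker level as a covariate, the differences of Fos and Junb were 1.64 and 1.52. At the other iMSN-D2RKO time points no member was apart upward, and Jun was lower after cocaine without overlap at ZT7, at 12.4, 18.5 and 15.1 FPKM against 22.6, 19.6 and 19.03 FPKM, a difference of -0.40 ± 0.19 (limma adjusted p = 0.203), in a comparison where 7.18% of all genes were lower without overlap.

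**Figure D4:**
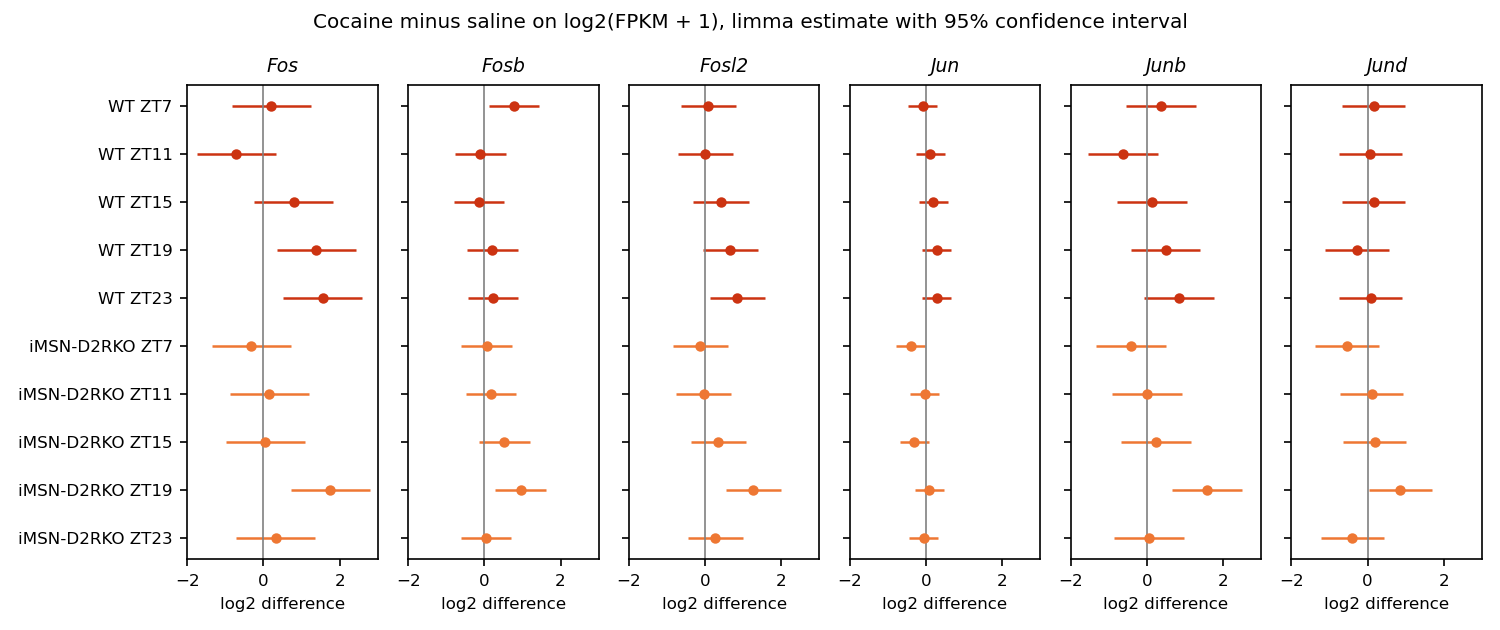
Cocaine minus saline on log2(FPKM + 1) for 6 members at each time point, as limma estimates with 95% confidence intervals, for WT (red) and iMSN-D2RKO (orange). Intervals lie above 0 for Fosb in WT at ZT7, Fos in WT at ZT19 and ZT23, Fosl2 in WT at ZT23 and for Fos, Fosb, Fosl2, Junb and Jund in iMSN-D2RKO at ZT19, and none of these differences passed the adjustment over all genes.

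No member was called by limma between cocaine and saline at any time point, and 10 of the 60 member tests had an unadjusted p under 0.05. Over all 14643 genes, those under 0.05 numbered from 60 in iMSN-D2RKO at ZT11 to 3346 in iMSN-D2RKO at ZT7. Few genes of any kind were called. In WT the called share of all genes was 0.00683% at ZT7, 0% at ZT11, 0.00683% at ZT15, 0.0205% at ZT19 and 0% at ZT23. In iMSN-D2RKO it was 0.0137% at ZT7 and 0% at each of the other 4 time points. Averaged over ZT7 to ZT23, no member was called either, beside 0.0137% of all genes in WT and 0% in iMSN-D2RKO. The unadjusted limma p was under 0.05 in 4 of 12 member tests, and for 364 of all genes in WT and 711 in iMSN-D2RKO. The cocaine difference itself was compared between genotypes at ZT7, where 0.0137% of all genes were called, and over ZT7 to ZT23, where 0% were. No member was called in either, and 1 of 12 tests, Jun over ZT7 to ZT23 at -0.30 ± 0.12, had an unadjusted limma p under 0.05. Of all genes, 271 had such a p over ZT7 to ZT23 and 924 at ZT7. At ZT19 the iMSN-D2RKO difference exceeded that of WT by 1.09 ± 0.65 for Junb, 1.14 ± 0.59 for Jund and 0.37 ± 0.73 for Fos, which limma did not call. Thus the ZT19 values of the genotypes are not shown to differ.

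The other immediate early genes were read at the same hours. Of 27, 16 had an unadjusted limma p under 0.05 in iMSN-D2RKO at ZT19, where 2340 of all 14643 genes did, with a list median of 0.62 beside -0.04 over all genes, and none was called. In WT at ZT23, 11 of 27 had an unadjusted limma p under 0.05, where 188 of all genes did, with a median of 0.42 beside -0.01, and none was called. Arc, a synaptic plasticity gene, was at 116, 101 and 112 FPKM after cocaine at iMSN-D2RKO ZT19 and at 40.1, 31.9 and 46.0 FPKM after saline. Averaged over WT ZT7 to ZT23, the nuclear receptor gene Nr4a1 rose by 0.70 ± 0.14 after cocaine (limma adjusted p = 0.0326), the single call of that list. The 19 genes upstream of AP-1 (MAP kinases, their nuclear targets and cAMP coactivators), the 14 tested AP-1 relatives and the 9 listed AP-1 regulated genes had 0 calls between cocaine and saline at any time point. Their list medians at iMSN-D2RKO ZT19 were -0.06, -0.04 and 0.02.

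Differences between time points were called for several members, and in WT saline the calls rested on ZT3. An F test in limma over the 6 time points called Fos, Fosb and Fosl2 in WT saline, with adjusted p of 0.00586, 0.00126 and 0.000213, where 1.6% of all genes were called. Fos in WT saline lost its call without WT ZT3 replicate 1 (adjusted p = 0.113). In WT cocaine Fos, Fosb, Fosl2, Jun and Junb were called, with limma adjusted p of 0.000734, 0.00145, 0.000202, 0.00165 and 0.0468, but 28% of all genes were called there too. Fosb in WT cocaine lost its call without WT ZT3 replicate 1 (limma adjusted p = 0.0668) and when only that series was fitted, and Junb lost it in 11 of 18 fits that each left out 1 library. In iMSN-D2RKO saline no member was called, beside 3.49% of all genes. There 1 member had an unadjusted limma p under 0.05, as did 4394 of all 14643 genes. In iMSN-D2RKO cocaine Fosl2 alone was called (limma adjusted p = 0.0402), where 0.997% of all genes were, and the call was lost in 11 of 18 fits that left out 1 library, with adjusted p up to 0.122.

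With the ZT3 libraries left out, no member was called in WT saline, beside 0.369% of all genes. Of the 6 members, 1 had an unadjusted limma p under 0.05, as did 2740 of all 14643 genes. In WT cocaine Fos, Fosl2 and Jun remained called, with limma adjusted p of 0.0102, 0.0458 and 0.00104, beside 29.1% of all genes. Fos there went from 2.38 ± 1.14 FPKM (mean ± SD, n = 3) at ZT11 to 12.3 ± 3.36 FPKM at ZT23, and Jun from 12.8 ± 1.66 to 23.5 ± 3.79 FPKM. In both iMSN-D2RKO series no member was called without ZT3, beside 0.526% of all genes in saline and 0.15% in cocaine. There 1 and 5 members had an unadjusted limma p under 0.05, as did 3978 and 1239 of all genes.

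Dark and light time points were then compared. Jun was the member that differed most often, being higher in the dark in WT cocaine (0.43 ± 0.11, limma adjusted p = 0.0109), iMSN-D2RKO saline (0.36 ± 0.11, adjusted p = 0.0196) and iMSN-D2RKO cocaine (0.42 ± 0.11, adjusted p = 0.0446). In WT saline Jun differed by 0.19 ± 0.11 and was not called, and no other member was called there, beside 2.75% of all genes. There 4 of 6 members had an unadjusted limma p under 0.05, as did 3979 of all 14643 genes. Fosb was lower in the dark in WT cocaine by -0.56 ± 0.19 (limma adjusted p = 0.0424), in a series where 13.7% of all genes were called. Fosl2 was higher in the dark in iMSN-D2RKO cocaine by 0.91 ± 0.21 (limma adjusted p = 0.0191), where 0.942% of all genes were called. In iMSN-D2RKO saline 27.3% of all genes were called, and Jun was the single member among them. Of the 13 set-apart libraries all but 1 fell in the dark, and Jun was higher in them. Without those libraries the dark and light calls numbered 3 instead of 5, and the iMSN-D2RKO saline call of Jun was among those lost, at 0.19. With 1 library left out, the call of Fosb in WT cocaine was lost in 12 of 18 fits (limma adjusted p up to 0.140) and that of Jun in iMSN-D2RKO cocaine in 13 of 18 (up to 0.141). The Jun call of iMSN-D2RKO saline was lost without saline ZT15 replicate 2, ZT19 replicate 1 or ZT23 replicate 3 (up to 0.0893). The Fosl2 call was lost without iMSN-D2RKO ZT3 replicate 1, cocaine ZT15 replicate 1 or cocaine ZT23 replicate 3 (up to 0.0692), and the Jun call of WT cocaine was lost in 0 of 18 fits. With the library score as a covariate, Jun had a limma adjusted p of 0.0808 in WT cocaine and 0.355 in iMSN-D2RKO saline.

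The F test over time points was also read for the lists, without a test of differences between series. Of 27 other immediate early genes, limma called 9 in WT saline, 17 in WT cocaine, 0 in iMSN-D2RKO saline and 2 in iMSN-D2RKO cocaine, the last being Egr2 and Arc. Of the 14 tested AP-1 relatives, 1 was called in WT saline (Atf3, a stress-induced repressor), 6 in WT cocaine (Atf3, Atf4, Crem, Jdp2, Maff and Nfe2l2) and none in iMSN-D2RKO. Of the 19 upstream genes, 4 were called in WT cocaine (Map2k4, Map2k7, Mapk10 and Crtc1) and 0 in the other series. Those counts in WT cocaine stand beside the 28% of all genes called there. Of the 9 AP-1 regulated genes, 1, Sparcl1, was called in WT cocaine, and of the 8 glucocorticoid-induced genes 1, 4, 1 and 2 were called in the 4 series in the same order. In iMSN-D2RKO cocaine, 5 immediate early genes were higher in the dark, among them Egr2 by 1.26 and Nr4a3 by 1.07, with none lower. In WT cocaine 3 were higher, among them Nr4a1 by 0.93, and 3 lower, among them Gadd45b by -0.79. Without ZT3, 9 were higher in WT cocaine and 0 lower, and the F test called 1 in WT saline (Per1) in place of 9.

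The ZT3 libraries moved some of these differences. Without ZT3, Fos was higher in the dark in WT cocaine by 1.44 ± 0.33 (limma adjusted p = 0.00967), Fosl2 by 0.74 ± 0.23 (adjusted p = 0.0476) and Jun by 0.59 ± 0.12 (adjusted p = 0.00603), beside 5.72% of all genes. With ZT3 the corresponding values of Fos and Fosl2 were 0.56 ± 0.30 and 0.01 ± 0.21. Fosb in WT cocaine, called with ZT3, stood at -0.10 ± 0.21 without it (limma adjusted p = 0.767). Jun in iMSN-D2RKO cocaine lost its call without ZT3, at 0.44 ± 0.12 (limma adjusted p = 0.126). Fosl2 in iMSN-D2RKO cocaine stood at 1.10 ± 0.23 without ZT3 (limma adjusted p = 0.0237), beside 0.239% of all genes. No member was called without ZT3 in WT saline or iMSN-D2RKO saline, beside 0.0615% and 9.38% of all genes, and Jun was the member with an unadjusted limma p under 0.05 in each. Of all genes, 2887 and 5538 had such a p.

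Rhythms were scored with JTK_CYCLE, a rank test for cosine-like order over periods of 20 to 24 h, with p adjusted over the period and phase choices of a gene and called under 0.01. Jun cycled in WT cocaine, with a peak at ZT23, a period of 24 h and an exact p of 0.000115. Its WT cocaine libraries ran from 10.9 to 13.9 FPKM at ZT11, the lowest group mean of the series, and from 20.5 to 27.8 FPKM at ZT23, the called peak. These hours were picked from the pattern itself, so the values describe the call and add no support to it. Fos was called in WT cocaine with a peak at ZT21, a period of 20 h and an exact p of 0.00533. That peak belongs to the fitted 20 h order. The group mean of Fos was highest at ZT3, at 25.8 FPKM, against 9.80 FPKM at ZT19 and 12.3 FPKM at ZT23. Fosl2 was called in iMSN-D2RKO cocaine with a peak at ZT19, a period of 20 h and an exact p of 0.00255. Jun in that series narrowly missed the threshold, with an exact p of 0.0106, a period of 24 h and a peak at ZT21. The called share of all genes was 7.61% in WT cocaine and 1.1% in iMSN-D2RKO cocaine. In saline no member was called, beside 9.81% of all genes in WT and 2.58% in iMSN-D2RKO. The member nearest to a call there was Jun in WT saline, with an exact p of 0.0199, and it was the single one under 0.05. A 24 h cosine fitted with limma called Jun in WT saline (adjusted p = 0.0381) and Jun and Fos in WT cocaine (adjusted p = 0.0224 and 0.0321), and no member in iMSN-D2RKO. Over all genes that fit called 1965 of 13940 in WT saline and 2084 of 14268 in WT cocaine, but 1 in iMSN-D2RKO saline and 0 in iMSN-D2RKO cocaine. In iMSN-D2RKO cocaine 5 of 6 members had an unadjusted limma p under 0.05, and the share of all genes under it was not counted.

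The Jun rhythm of WT cocaine was called under each of the 12 other settings tried, though without replicate 3 its exact p was 0.0286. That of Fos was less steady. It had an exact p of 0.0109 for a period of 24 h alone, 0.0199 with ties between time points ranked the other way, 0.0156 to 0.0499 with any 1 replicate left out, and 0.0121, 0.225 and 0.0187 without ZT7, ZT11 or ZT23. Fosl2 in iMSN-D2RKO cocaine had an exact p of 0.312 without replicate 2, and of 0.0187, 0.0121, 0.0187 and 0.121 without ZT7, ZT11, ZT15 or ZT19. Jun in iMSN-D2RKO cocaine was called for a period of 24 h alone (exact p of 0.00576) and without replicate 2 (0.00389). It was also called without the set-apart libraries (0.00408), with the library score removed (0.00533) and with median-ratio scaling (0.00755). Without replicate 1 or 3 it had an exact p of 0.312 or 0.134, and without any 1 time point 0.0121 to 0.300. In WT saline, Jun was called with median-ratio scaling (exact p of 0.00755). A call in one series and not in another was not tested as a difference between them. In iMSN-D2RKO cocaine 7 of 27 other immediate early genes were rhythmic by JTK_CYCLE (Arc, Dusp5, Dusp6, Klf2, Klf4, Nr4a1 and Nr4a3), beside 1.1% of all genes. None of the 26 tested in iMSN-D2RKO saline was, beside 2.58% of all genes. In WT saline 1 of 27 was (Egr3), and in WT cocaine 1 of 27 (Npas4), beside 9.81% and 7.61% of all genes. Of the 14 AP-1 relatives tested in each WT series, 1 was rhythmic in WT cocaine (Jdp2, a Jun dimerization partner). In WT saline 3 were (Atf2, Atf4 and Crem), with the same shares of all genes beside them.

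The members formed sets by how they moved together. Correlations are of log2(FPKM + 1) after group means were subtracted, over 66 libraries that share the scaling and the library score, and are descriptions. Fosb and Fosl2 had r = 0.80, Fosb and Junb 0.70, Fos and Junb 0.68, and Fos and Fosb 0.59. Jun had r of 0.12 to Fos and -0.03 to Fosb over 66 libraries, and of 0.38 and 0.29 without the 13 set-apart libraries, where Fos and Fosl2 had r = 0.37. Junb and Jund had r = 0.74 over 66 libraries and 0.49 without the 13 set-apart libraries. Jun and Jund had r = -0.38 over 66 libraries and 0.53 without the set-apart libraries, so their sign turned with those libraries.

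**Figure D5:**
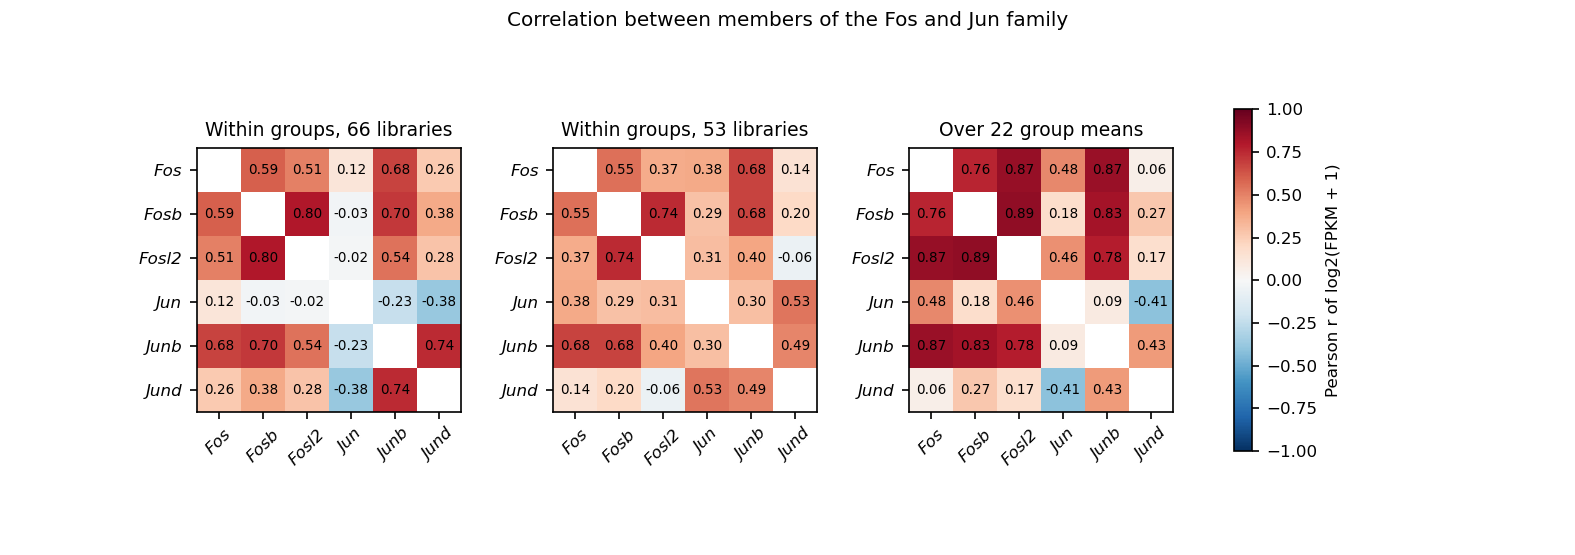
Pearson r between members on log2(FPKM + 1), within groups over all 66 libraries (left), within groups over the 53 libraries that were not set apart (middle) and over the 22 group means (right). Fos, Fosb, Fosl2 and Junb are positively related in all panels (r from 0.37 to 0.89), while the relation of Jun with Jund is -0.38 on the left and 0.53 in the middle.

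The genes nearest to each member within groups, out of 12945 with a mean of at least 1 FPKM, divided along the same lines. Nearest to Fos were Arc (r = 0.82), the antiproliferative gene Btg2 (0.82) and Egr2 (0.78). Junb was nearest to Egr4 (0.90) and the kinase gene Sik1 (0.87), and Fosb to Fosl2 (0.80) and Egr2 (0.74). Fosl2 was nearest to Fosb (0.80) and to Per1 (0.74), a clock gene that is also induced by activity. Jund was nearest to Stk16 and Usp5 (0.97 each), and Jun to Zdhhc6 and Ddx23 (0.76 each). Without the set-apart libraries, Jund was nearest to Stk11 and Cyth2 (0.87 each).

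Over the 22 group means, Arc was again nearest to Fos (r = 0.95), followed by the phosphatase gene Dusp1 (0.91), and the nuclear receptor gene Nr4a3 was nearest to Fosl2 (0.91). Jun was nearest to the chaperone gene Hsp90aa1 (0.90), to Lrrc59 (0.90) and to the co-chaperone gene Stip1 (0.88). Btg2 was nearest to Junb (0.90) and Map2k2, a kinase of the MAP kinase cascade, to Jund (0.96). Without the ZT3 groups, Arc remained nearest to Fos (0.94) and Nr4a3 to Fosl2 (0.91).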

How the data were processed

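RNA was taken from frozen ventral striatum punches and sequenced by the authors, who deposited a table of gene FPKM; the submitters' processing notes name CASAVA 1.8.2, Bowtie and Cuffnorm with mm10. Raw counts were not used here, so count models were not applied and depth is unknown. The 72 columns hold 66 distinct libraries, 6 ZT3 columns being repeats. The members and gene lists were chosen with earlier results of these data known. Genes reaching 1 FPKM in any library (14643) were analysed as log2(FPKM + 1) in limma 3.58.1 (R 4.3.3), with 22 group means, a mean-variance trend and Benjamini-Hochberg adjustment over all genes; a call is an adjusted p under 0.05. A fold change on this scale understates that of low genes. JTK_CYCLE was rewritten in Python 3.11.15 for series of 18 libraries with the ZT3 libraries in both series of a genotype, and its ranking of ties was set to match the study's published WT p-values. Genes named are the 7 members, genes called from the fixed lists, the 5 most correlated genes per member, and Drd2; Drd1, Slc17a7, the Arc levels and the neighbours without set-apart libraries or ZT3 were chosen after their values were seen. Sequences and their coordinates are RefSeq on GRCm38.p6, and gene boundaries are GENCODE on mm10. The limma and JTK_CYCLE scripts were tested on simulated data. Numbers shared by replicates did not pair libraries: the mean correlation of deviations was -0.00312 for same-numbered and 0.00257 for other pairs of libraries. Alternatives changed the pseudocount, the filter, the scaling, the samples and the covariates.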

Additional observations from a re-analysis of the deposited data

How the results depend on the processing

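Counts below are of member tests that passed the threshold, with the value as reported first. Cocaine against saline at each time point had 0 calls and 1 without the set-apart libraries (Jun, WT ZT19, 1 library against 1); leaving out 1 library gave 0 to 4. Averaged over ZT7 to ZT23, and for the genotype comparison of the cocaine difference, 0 calls stood under every setting run. iMSN-D2RKO against WT had 1 call, 0 without the set-apart libraries or when only the compared groups were fitted, 2 with the library score as a covariate, and 0 to 3 with 1 library left out. Any difference between time points had 9 calls, 13 with the library score as a covariate, 3 without ZT3 (chosen after seeing the data), and 6 to 11 with 1 library left out. Dark against light had 5 calls, 3 with no filter on low values, 3 without the set-apart libraries, 3 when only the compared groups were fitted, and 3 to 7 with 1 library left out. JTK_CYCLE had 3 calls, 6 with the library score removed, 5 with median-ratio scaling, 1 without ZT7, 1 without ZT11, 7 at a threshold of 0.05, and 2 with any 1 replicate number left out. Those 2 changed with the replicate. They were Jun in WT cocaine and Fosl2 in iMSN-D2RKO cocaine without replicate 1. Without replicate 2 they were Jun in both cocaine series, and without replicate 3 Fosl2 and Fosb in iMSN-D2RKO cocaine. Over all genes, JTK_CYCLE calls numbered 2971 as reported, 2637 with the library score removed and 3016 with median-ratio scaling. They numbered 3144 without ZT7, 2400 without ZT11 and 8263 at a threshold of 0.05. Without replicate 1, 2 or 3 they numbered 981, 2065 and 1564. The cause of the shifts between settings was not tested.

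With a replicate block, calls between time points numbered 8 instead of 9 (Junb in WT cocaine was lost) and the other counts were as reported, 0, 0, 0, 1 and 5; the numbers do not pair the libraries. Over all genes, calls of cocaine against saline at the 10 time points numbered 7, 3 with a pseudocount of 0.1, 21 with no filter, 1559 when the set-apart libraries were dropped and 48 after adjusting for the library score; those between genotypes numbered 53, 114 when those libraries were dropped and 589 after that adjustment. Dark against light numbered 6546 over the 4 series, 2941 when those libraries were dropped and 1809 after the adjustment, and JTK_CYCLE calls numbered 2971 and 1663 when those libraries were dropped. Read depth is unknown, and Fosl1 stayed under 1 FPKM in all 66 libraries.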
